A study of Mus musculus with 18 samples.

Results

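The genes described here are 44 X-linked genes that read almost entirely from the active X chromosome in mouse B cells, although the authors' deposited table of 104 genes lists them as escaping X inactivation. They are the genes of that table whose inactive-to-active ratio of normalised reads was below 0.05 in naive and in stimulated cells, after 8 further genes under this limit were left out by name. The ratio is the group mean SRPM, the authors' reads normalised per allele, of the inactive X chromosome over that of the active X chromosome. Since this ratio chose the genes, the ratios and shares of the alleles given here are a description, and the test of a change of the ratio is given only beside its background, with nothing read from it.

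The samples came from female F1 hybrids of the 129S1 and Cast mouse strains, and each was CD23+ B cells of the spleen. The labels state that inactivation was skewed and the Cast copy always silent, so Cast reads stand for the inactive X chromosome and 129 reads for the active one. All 6 samples share this genotype, whose label also carries a heterozygous allele that is not reported here. The naive group (n = 3) was untreated, and the stimulated group (n = 3) received CpG at 1 µM in culture for 24 h. CpG is a short DNA that Toll-like receptor signalling in B cells responds to. The labels do not say whether the replicates came from separate animals, so p-values measure the spread between these samples only. Whether stimulation changed the output of the inactive X chromosome is the question that the design puts to these genes.

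Female mammals silence 1 of their X chromosomes in each cell, which brings the dose of X-linked genes close to that of males. Some genes escape this silencing and are transcribed from both copies, usually less from the inactive one. In resting lymphocytes the chromatin marks of the silenced chromosome are known to be dispersed, and they return when the cells are activated.

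Reads counted in genes ranged from 1987266 to 2928236 per sample in the 129 tables and from 2465073 to 3321753 in the Cast tables. All 44 genes were found in both. B cell markers were present in every sample, with 8 of 8 detected and a summed level over both alleles of 7531 to 9842 CPM (reads scaled to library size) in naive and 2644 to 3203 CPM in stimulated cells. The naive samples also held macrophage RNA. The 10 macrophage markers summed to 4533, 1980 and 3042 CPM in naive replicates 1 to 3 and to between 4.32 and 4.55 CPM in stimulated samples, where Fcna was at 0. T cell markers summed to 42.8 to 53.6 CPM in naive and 5.39 to 6.80 CPM in stimulated samples, with Cd3g at 0 in the latter. Cd4 was the largest part of the naive sum (41.2, 21.5 and 29.9 CPM in replicates 1 to 3). Lck was the largest part of the stimulated sum (4.72, 4.48 and 5.18 CPM). Cd3e, Cd3d, Cd3g and Cd8a reached at most 3.59 CPM in any sample. Neutrophil and erythroid markers summed to 16.9 to 52.1 and 0.480 to 1.01 CPM, most of the naive sum being Alas2 (24.5, 13.6 and 35.0 CPM). Of the 5 genes of this list, 3 were matched between the tables. The globin genes Hbb-bs and Hba-a1 gave no reads under these names in either group. A missing gene row would give the same result, so an absence of globin RNA is not read from it. In bulk RNA, fewer cells of a type and less RNA per cell cannot be told apart.

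Promoter sequence was taken from RefSeq (GRCm38.p6) as the 250 bases before the first listed start, and 41 of the 44 genes had a promoter entry. The promoters held a median of 12 CpG dinucleotides (range 2 to 32), and 24 of 41 (58.5%) had an observed-to-expected CpG ratio of at least 0.6, against 45.2% of 17492 protein-coding promoters, 68.4% of 76 promoters of X-linked genes outside the authors' table and 68.9% of 45 promoters of the other genes in it. Of 6 motifs searched on both strands, the YY1 motif AAGATGGCG lay in 3 of 41 (7.32%) against 0.697% of protein-coding promoters. It lay in 1.32% of the 76 X-linked promoters outside the authors' table and 0% of the 45 of other genes in it. No motif contains the letters of another. YY1 is a zinc finger transcription factor. The 3 genes were Hcfc1, a chromatin co-regulator, Idh3g, a subunit of mitochondrial isocitrate dehydrogenase, and Phf8, a histone demethylase. Their promoters are shown with the motif in capitals, for Hcfc1 (chrX:73966358-73966607, minus strand), Idh3g (chrX:73786898-73787147, minus strand) and Phf8 (chrX:151520422-151520671, plus strand).
Hcfc1: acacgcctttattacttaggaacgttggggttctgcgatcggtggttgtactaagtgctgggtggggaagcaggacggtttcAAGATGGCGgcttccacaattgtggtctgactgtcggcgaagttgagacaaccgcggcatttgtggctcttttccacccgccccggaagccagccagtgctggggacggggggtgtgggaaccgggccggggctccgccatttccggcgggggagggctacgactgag
Idh3g: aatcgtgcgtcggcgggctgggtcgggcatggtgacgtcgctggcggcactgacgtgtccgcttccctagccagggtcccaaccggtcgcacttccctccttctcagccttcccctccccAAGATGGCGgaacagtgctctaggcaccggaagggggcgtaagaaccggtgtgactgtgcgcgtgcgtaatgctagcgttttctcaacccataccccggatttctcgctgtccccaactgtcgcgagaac
Phf8: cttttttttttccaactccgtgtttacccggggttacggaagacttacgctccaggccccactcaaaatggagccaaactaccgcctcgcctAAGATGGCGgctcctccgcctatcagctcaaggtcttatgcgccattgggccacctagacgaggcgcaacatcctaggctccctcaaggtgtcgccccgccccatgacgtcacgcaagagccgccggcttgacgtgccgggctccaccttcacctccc

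The other motifs are given beside the share of protein-coding promoters and then that of the 76 X-linked promoters. The last value is for the 45 promoters of the other genes in the authors' table. The E-box CACGTG lay in 4 of 41 promoters (9.76%, against 6.64%, 7.89% and 6.67%), those of 2610002M06Rik, Elf4, Gk and Uba1. The ETS motif CCGGAAG lay in 6 (14.6%, against 9.13%, 10.5% and 17.8%). CCAAT lay in 15 (36.6%, against 36.3%, 48.7% and 51.1%) and TATAAA in 2 (4.88%, against 12.4%, 5.26% and 8.89%). The NRF1 motif GCGCATGCG lay in 0 (against 1.97%, 0% and 4.44%). The promoters of the genes with the largest rise and the largest fall on the active X chromosome, Gk (chrX:85776820-85777069, minus strand) and Arhgap4 (chrX:73911299-73911548, minus strand), are shown because CpG content was also compared between rises and falls. Capitals mark CpG, of which the Gk promoter held 21 and the Arhgap4 promoter 10.
Gk: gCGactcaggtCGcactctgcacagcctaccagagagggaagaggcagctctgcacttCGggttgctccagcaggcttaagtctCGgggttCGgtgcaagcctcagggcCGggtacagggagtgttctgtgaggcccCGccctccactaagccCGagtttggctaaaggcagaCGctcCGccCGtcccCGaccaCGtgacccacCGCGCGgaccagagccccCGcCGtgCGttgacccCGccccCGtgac
Arhgap4: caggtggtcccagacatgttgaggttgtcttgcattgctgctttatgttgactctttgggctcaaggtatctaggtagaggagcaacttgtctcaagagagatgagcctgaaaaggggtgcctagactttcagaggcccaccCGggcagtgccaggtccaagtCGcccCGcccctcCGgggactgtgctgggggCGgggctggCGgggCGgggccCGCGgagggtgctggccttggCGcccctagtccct

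In the authors' deposited table, the 44 genes differed widely in expression. Their mean RPKM over both alleles in naive cells ran from 3.08 for Gk, which encodes glycerol kinase, to 2647 for Rps4x, a protein of the small ribosomal subunit, with a median of 24.2. In stimulated cells it ran from 4.66 for Ddx26b, a paralogue of an Integrator subunit, to 2878 for Rps4x, with a median of 35.6. The ratios that chose the genes lay between 0.00521 and 0.0468 in naive cells (median 0.0241) and between 0.00969 and 0.0498 in stimulated cells (median 0.0238). Just inside the limit, the larger of both ratios was 0.0498 for Pdha1, a subunit of pyruvate dehydrogenase, 0.0468 for Ddx26b and 0.0462 for Phf8. Just outside it were G6pdx at 0.0549, Fancb at 0.0551 and Brcc3 at 0.0567 in the authors' deposited table, so the limit separates genes that differ little.

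Read by read, the inactive X chromosome gave 5223 of the reads of these genes over the 6 samples, against 190714 from the active X chromosome. The Cast share of the reads summed over the 44 genes was 2.30%, 2.87% and 3.01% in naive replicates 1 to 3 (95% Wilson intervals 2.13 to 2.47, 2.69 to 3.07 and 2.81 to 3.23). It was 2.37%, 3.06% and 2.43% in stimulated replicates 1 to 3 (2.22 to 2.54, 2.90 to 3.24 and 2.28 to 2.59). The groups overlapped, with the highest value in stimulated replicate 2 and the lowest in naive replicate 1. Group means were 2.73% ± 0.379 and 2.62% ± 0.383 (SD, n = 3 each), and their difference of -0.107 percentage points was smaller than the SD of either group. Within the replicate numbers, the stimulated sample was higher by 0.0733 and 0.188 points for replicates 1 and 2 and differed by -0.582 points for replicate 3.

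Rps4x alone supplied 36.2% of the Cast reads. It gave 276, 290 and 236 Cast reads in naive and 303, 465 and 319 in stimulated replicates 1 to 3, a share of 2.49%, 3.00% and 2.83%, then 2.35%, 3.21% and 2.44%. These shares overlapped between the groups and lay close to the sum over all 44 genes. Rps4x has near-identical copies in the genome, and how the authors counted reads that fit several copies is not given in the sources used here. The same doubt holds for Rpl36a, Eif1ax, Zrsr2 and Pdha1. After Rps4x, most Cast reads came from Flna (408 over the 6 samples), which encodes the actin cross-linker filamin A, from Uba1 (179), the main ubiquitin-activating enzyme, from Sash3 (167), an adaptor of lymphocyte signalling, and from Arhgap4 (139), a GTPase-activating protein. The mean per gene ran from 4.17 to 315 Cast reads a sample with a median of 10.2. Every gene had a Cast read in stimulated replicates 1 and 2, and 42 or 43 genes had one in each of the other 4 samples.

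Within the 44 genes the Cast share varied several-fold. Over the 6 samples together it was lowest for Gk at 1.07% (95% Wilson interval 0.741 to 1.54) and Idh3g at 1.34% (1.07 to 1.67). It was highest for Phf8 at 5.01% (3.84 to 6.51) and Pdha1 at 5.05% (4.19 to 6.07), whose intervals do not reach those of the lowest genes. The share was below 5% in every sample for 30 of the 44 genes. Single samples could stand well above the rest at this depth, as for Pqbp1, a splicing-associated protein, with 14 Cast reads and 10.2% in naive replicate 3 against 1.12% to 4.43% in the other 5 samples. For a gene with the median number of reads, a count of 0 would still allow a share of 0.684% to 1.28%, depending on the sample. Such limits and the intervals describe counting error alone, because PCR copies of a molecule look like separate molecules when reads carry no identifiers.

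**Figure D1:**
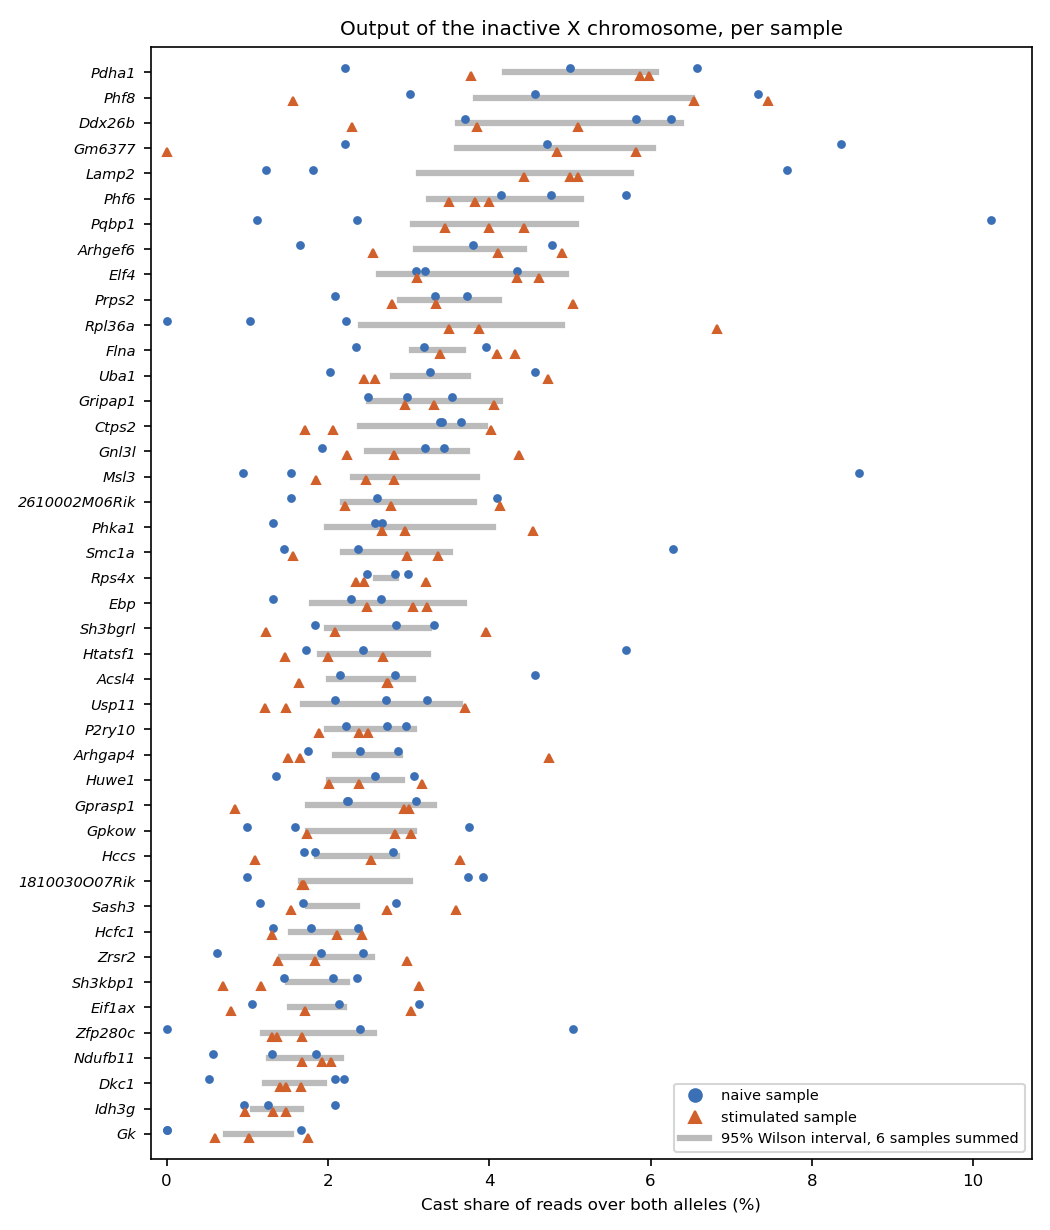
Cast share of reads over both alleles (%, horizontal axis) of each of 43 of the 44 genes, with naive samples as blue circles, stimulated samples as orange triangles and the 95% Wilson interval of the 6 samples summed as a grey bar. Naive and stimulated symbols overlap for all but Rpl36a and Phf6, and most lie below 5%.

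Naive and stimulated shares overlapped for 42 of the 44 genes. Among the 7449 genes that had 30 or more allele-assigned reads in each sample they did not overlap for 20.3%, and since the rule used the ratio nothing is read from the count. For Rpl36a, a protein of the large ribosomal subunit, the share was 2.22%, 0% and 1.03% in naive and 6.82%, 3.50% and 3.87% in stimulated replicates 1 to 3. All stimulated samples stood above all naive ones, on 2, 0 and 1 Cast reads in naive and 12, 7 and 7 in stimulated samples. For Phf6, a chromatin-associated PHD finger protein, it was 4.14%, 4.76% and 5.70% in naive and 4.0%, 3.83% and 3.50% in stimulated samples, where all were lower. Both genes are singled out after their values were seen.

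On the active X chromosome, most of the 44 genes differed between naive and stimulated cells. All 44 were tested in the 129 tables, and 22 were higher and 12 lower in stimulated cells in edgeR's quasi-likelihood test at an adjusted p of 0.05, while 10 did not pass. Over all 10581 genes tested, 28.2% were higher, 27.0% lower and 55.2% called in either direction. The groups did not overlap for 25 genes that were higher and 13 that were lower, against 32.6% and 32.2% of all genes tested (64.8% in either direction). With the replicate number as a block, 37 of the 44 were called, against 65.1% of all genes. The median log2 fold change of the 44 genes was 0.32, and that of all genes tested was -0.01. For the 59 tested genes of the authors' table outside the 44 it was 0.41, with 27 higher and 13 lower. In the 6 fits that left out 1 sample each, 25 of the 34 calls held throughout. The 9 others are the fall of Elf4 and the rises of Htatsf1, Sh3bgrl, Huwe1, Pdha1, Pqbp1, Ebp, Rpl36a and Msl3. Each of the 9 lost its call without naive replicate 1, and Htatsf1 lost it in each of these fits. The highest adjusted p of such a fit was 0.133 for Elf4, 0.129 for Pqbp1, 0.117 for Htatsf1, 0.106 for Pdha1 and between 0.0557 (Huwe1) and 0.0757 (Sh3bgrl) for the others. By role, 6 of 10 genes of RNA processing and translation rose and 1 fell, 7 of 10 of metabolism rose and 1 fell, and 5 of 8 of chromatin and transcription rose and 2 fell. Among 7 genes of ubiquitin, endosome and lysosome 3 rose and 2 fell, and among 7 of signalling and cytoskeleton 1 rose and 5 fell. The remaining pair without a given role had 1 fall.

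**Figure D2:**
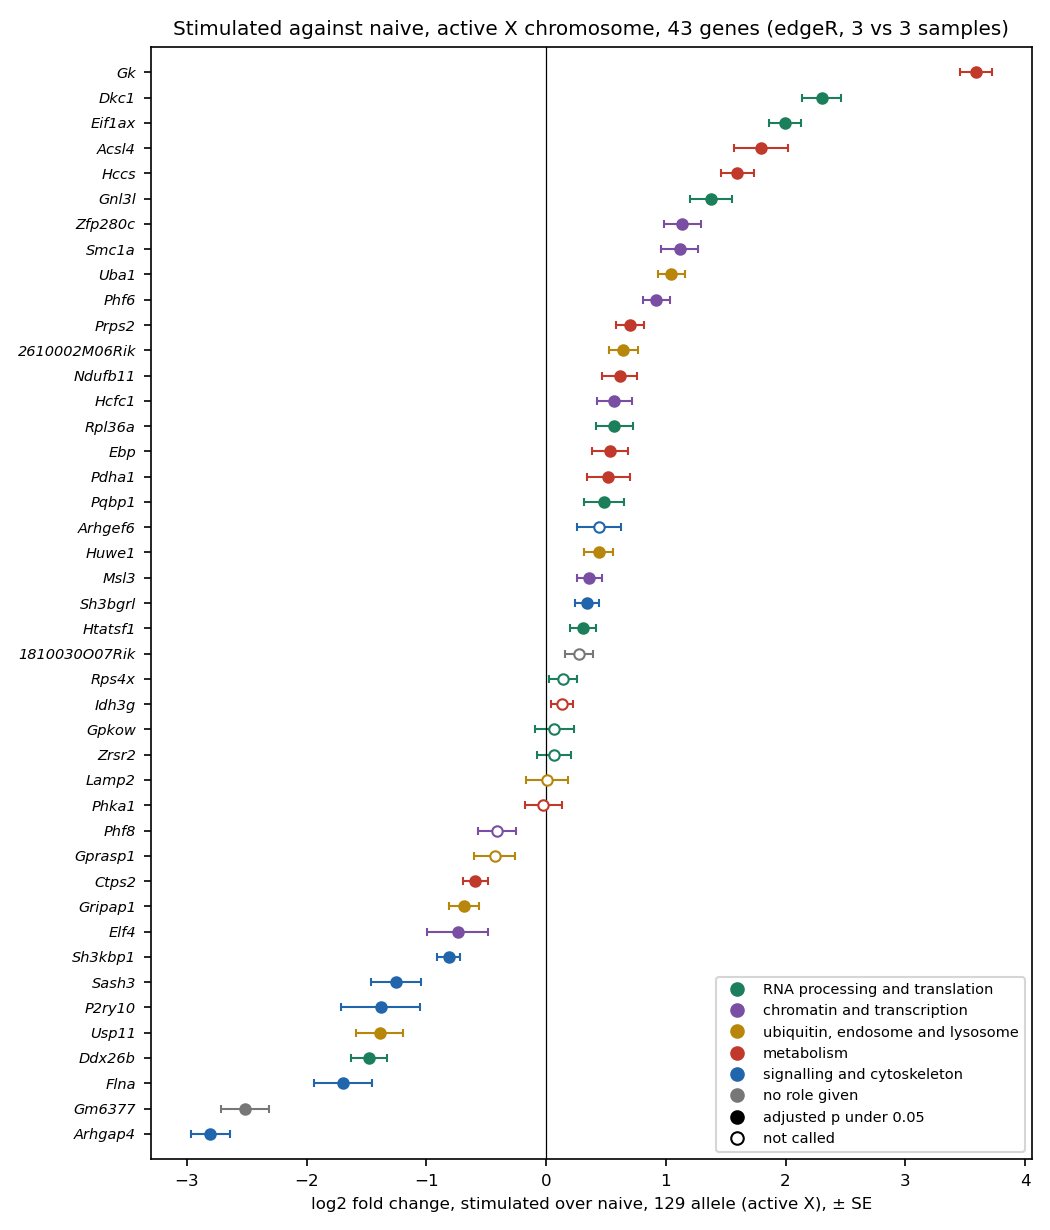
Log2 fold change, stimulated over naive, on the 129 allele (horizontal axis) for 43 of the 44 genes with its standard error as a bar, coloured by role, with filled points where the adjusted p was under 0.05. Values run from -2.80 for Arhgap4 to 3.59 for Gk, and the blue signalling and cytoskeleton genes hold 5 of the filled points left of 0.

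Metabolic genes held the largest rise. Gk, which phosphorylates glycerol, stood at 25.4, 23.3 and 22.6 CPM in naive and 299.9, 258 and 303 CPM in stimulated replicates 1 to 3 on the 129 allele. Every stimulated sample exceeded every naive one by a wide margin. The change was 12.1-fold (log2 3.59, SE 0.13, adjusted p = 1.1e-05, edgeR). Acsl4, an acyl-CoA synthetase for long-chain fatty acids, went from 97.7, 85.6 and 94.3 CPM to 366, 214 and 383 CPM, with stimulated replicate 2 the lowest of its group and the groups apart (log2 1.80, SE 0.23, adjusted p = 0.000463). Hccs, which attaches heme to cytochrome c, went from 119, 96.0 and 107 CPM to 346, 282 and 346 CPM, again without overlap (log2 1.60, SE 0.14, adjusted p = 7.47e-05). Smaller rises that passed were those of Prps2, Ndufb11, Ebp and Pdha1, between log2 0.52 and 0.70. Ctps2, a CTP synthase, fell by 0.59 on the log2 scale, and Idh3g and Phka1 did not pass, with 0.14 and -0.02.

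Genes of RNA processing and translation followed. Dkc1 encodes dyskerin, the pseudouridine synthase of small nucleolar and telomerase RNPs. It stood at 76.6, 97.6 and 94.8 CPM in naive and 501, 373 and 452 CPM in stimulated samples, with no overlap (log2 2.30, SE 0.16, adjusted p = 2.95e-05, edgeR). Eif1ax, a translation initiation factor, went from 161, 141 and 138 CPM to 629, 510.4 and 618 CPM, 3.99-fold (log2 2.00, SE 0.13, adjusted p = 2.57e-05). Gnl3l, a nucleolar GTPase, went from 109, 117 and 75.7 CPM to 285, 240.3 and 259 CPM (log2 1.38, SE 0.18, adjusted p = 0.000485). Naive and stimulated samples were apart for both. The rises of Rpl36a (log2 0.57), Pqbp1 (0.48) and Htatsf1 (0.31) also passed. Rps4x, by far the most abundant of the 44 genes in reads, did not pass, at 4659, 3898 and 4059 CPM in naive and 4523, 4963 and 4443 CPM in stimulated samples (log2 0.14, SE 0.12, adjusted p = 0.336). Gpkow and Zrsr2, both tied to splicing, stood at log2 0.07 each and did not pass. Ddx26b was the gene of this group that fell, from 83.5, 87.3 and 104 CPM to 30.6, 35.4 and 32.5 CPM (log2 -1.48, SE 0.15, adjusted p = 0.000167).

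Among chromatin and transcription genes, Smc1a, a core subunit of cohesin, rose from 87.8, 103 and 89.8 CPM to 164, 224 and 219 CPM (log2 1.12, SE 0.16, adjusted p = 0.000682, edgeR). Zfp280c, a zinc finger protein, rose from 49.9, 54.8 and 61.2 CPM to 129, 103 and 132 CPM (log2 1.14, SE 0.15, adjusted p = 0.000567). Phf6 (log2 0.92), Hcfc1 (0.57) and Msl3 (0.36), a subunit of the male-specific lethal complex, rose less. The groups did not overlap for Smc1a or Zfp280c. Elf4, an ETS-family factor, fell by 0.74 on the log2 scale and Phf8 did not pass (log2 -0.41, adjusted p = 0.0587). With the replicate number as a block, Phf8 passed (adjusted p = 0.0229).

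Ubiquitin and endosome genes moved in both directions. Uba1 went from 229, 234 and 199 CPM to 429.7, 494 and 444 CPM (log2 1.05, SE 0.12, adjusted p = 0.000228, edgeR), with every stimulated sample above every naive one. Usp11, a deubiquitinase, went from 101, 104 and 90.3 CPM to 29.1, 47.1 and 36.3 CPM (log2 -1.39, SE 0.19, adjusted p = 0.000718). The ubiquitin ligase Huwe1 rose by a log2 of 0.44 and 2610002M06Rik by 0.65. The endosomal protein Gripap1 fell by 0.69 on the log2 scale. Lamp2, a lysosomal membrane protein, stood at log2 0.01 (SE 0.17) and did not pass, and neither did Gprasp1 (log2 -0.43), which passed with the replicate number as a block.

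Signalling and cytoskeleton genes made up most of the large falls. Arhgap4 stood at 651, 759 and 673 CPM in naive and 85.6, 121 and 91.4 CPM in stimulated samples, far apart in all (log2 -2.80, SE 0.16, adjusted p = 1.84e-05, edgeR). Flna went from 1271, 1413 and 1084 CPM to 307, 539.8 and 317 CPM (log2 -1.69, SE 0.24, adjusted p = 0.000925). Stimulated replicate 2 was the highest of its group for both and still below all naive samples. Sash3 went from 769, 896 and 669 CPM to 269, 429 and 281 CPM (log2 -1.25, SE 0.21, adjusted p = 0.00169). P2ry10, a G protein-coupled receptor for lysophospholipids, went from 276, 218 and 463 CPM to 131, 86.8 and 149.7 CPM, with naive replicate 3 well above the other two (log2 -1.38, SE 0.33, adjusted p = 0.012). Sh3kbp1, an endocytic adaptor, fell by 0.81 on the log2 scale. Sh3bgrl rose by a log2 of 0.34, and Arhgef6 did not pass (log2 0.44) except with the replicate number as a block. Gm6377, a gene model with no role given, went from 152, 109 and 152 CPM to 21.2, 28.7 and 22.3 CPM (log2 -2.51, SE 0.20, adjusted p = 5.03e-05).

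The macrophage markers fell in the same comparison, and the part of macrophage RNA in these falls was not tested. Among the naive samples, replicate 2 had the lowest macrophage sum (1980 CPM) and the highest level of Arhgap4, Flna, Sash3 and Usp11. For P2ry10 and Gm6377 the same sample was the lowest naive one.

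**Figure D3:**
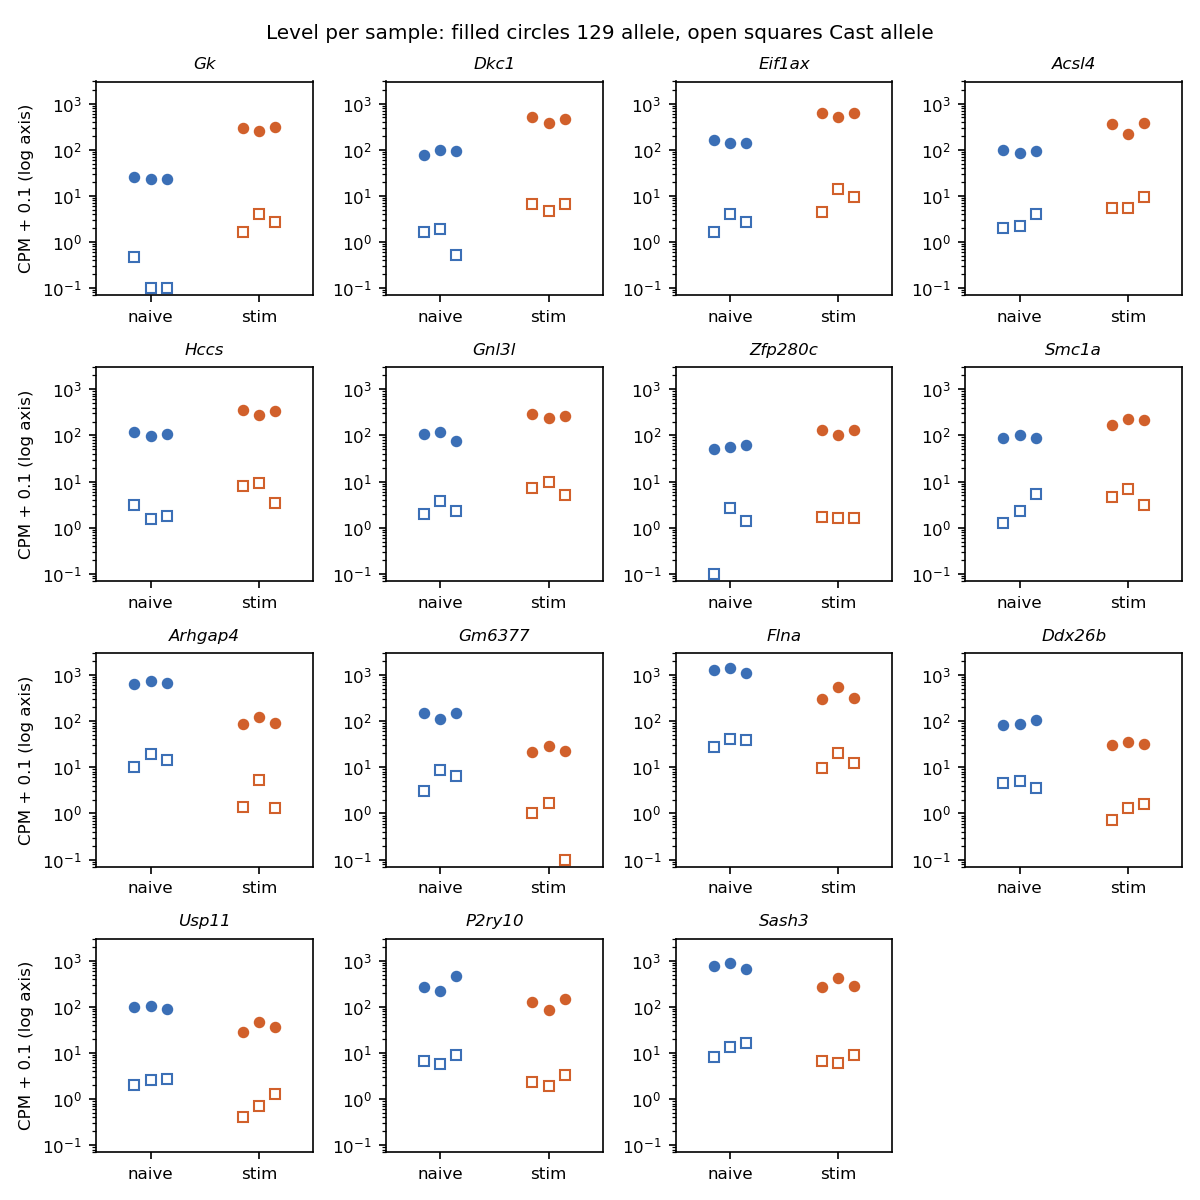
Level in CPM (log axis) of 15 genes among those with the largest rises and falls on the active X chromosome, in naive samples (blue) and samples stimulated for 24 h (orange), with filled circles for the 129 allele and open squares for the Cast allele. Every gene has its open squares far below its filled circles, and symbols at the foot of a panel are samples with 0 Cast reads.

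Lists of X-linked genes by pathway were counted in the 129 tables as well. They are not the role groups given above: 7 of the 44 are in the list of RNA processing and translation, 7 in that of chromatin and transcription, 10 in that of mitochondria and metabolism, 6 in that of protein turnover and folding and 7 in that of signalling, cytoskeleton and immune receptors. Of RNA processing and translation genes outside the 44, 13 of 19 tested were higher and the rest did not pass. For chromatin and transcription 10 of 26 were higher and 4 lower, for mitochondria and metabolism 16 of 37 and 9, for protein turnover and folding 2 of 19 and 5, and for signalling, cytoskeleton and immune receptors 10 of 43 and 13. Of 8 constitutive escape genes, which are transcribed from the inactive X chromosome in many tissues, 4 were higher and 1 lower. Of 161 X-linked genes that the authors' table leaves out, 42 were higher and 43 lower, with a median log2 fold change of 0.01.

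The promoters of the genes that rose held a median of 16.5 CpG (20 promoters), those of the genes that fell 6 (11 promoters) and those of the genes that did not pass 12 (10 promoters). Over all genes tested, the medians were 17 for genes that rose and 15 for those that fell. Ranges overlapped widely among the 44 genes, from 4 to 32 CpG for rises and from 2 to 31 for falls, and the difference was not tested.

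On the inactive X chromosome, 24 of the 44 genes had enough Cast reads to be tested, and 6 were higher and 3 lower in stimulated cells by the same test. The read filter can be met by 1 group alone. Of the called genes, Dkc1, Eif1ax, Gnl3l, Acsl4, Prps2, Arhgap4 and P2ry10 were tested only through the group where they were high. Nothing is therefore read from the counts or from these calls. Of all 10365 genes tested in the Cast tables, 30.7% were higher, 31.5% lower and 62.2% called. With the replicate number as a block 9 were again called, against 66.3% of all genes. Each of the 9 called genes had the same call in the 129 tables, and 23 of the 24 had the same sign of change. The rule holds the ratio of the alleles low in both groups and so fixes part of this likeness. The part of 129 reads counted as Cast in it was not tested. Dkc1 gave 4, 5 and 1 Cast reads in naive and 21, 15 and 22 in stimulated samples (log2 2.17, SE 0.51, adjusted p = 0.00442, edgeR). Arhgap4 gave 27, 54 and 33 Cast reads and then 4, 17 and 4 (log2 -2.50, SE 0.54, adjusted p = 0.00319). Flna gave 71, 112 and 89 and then 30, 65 and 41 (log2 -1.34, SE 0.30, adjusted p = 0.00352). None of these 3 genes overlapped between the groups in Cast reads. P2ry10 gave 18, 16 and 21 Cast reads and then 7, 6 and 11 (log2 -1.53, SE 0.40, adjusted p = 0.00856), also apart.

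The other rises on the inactive X chromosome did not hold in every fit that left out a library. Eif1ax went from 4, 11 and 6 Cast reads to 14, 45 and 31 (log2 1.75, SE 0.53, adjusted p = 0.0171) and Gnl3l from 5, 10 and 5 to 23, 31 and 17 (log2 1.49, SE 0.44, adjusted p = 0.0147). Acsl4 went from 5, 6 and 9 to 17, 17 and 31 (log2 1.33, SE 0.45, adjusted p = 0.0275) and Uba1 from 11, 19 and 19 to 30, 37 and 63 (log2 1.05, SE 0.38, adjusted p = 0.0359). Stimulated samples were above naive ones for all 4 genes in CPM. Prps2, a phosphoribosyl pyrophosphate synthetase, was the remaining call (log2 0.98, adjusted p = 0.045) and missed the threshold with the replicate number as a block. These 5 calls were each lost in at least 1 such fit, for Eif1ax and Gnl3l without naive replicate 1 (adjusted p = 0.0570 and 0.0532) or without stimulated replicate 2 (0.0646 and 0.0533). Uba1 was lost without naive replicate 1 or 2 or stimulated replicate 3 (0.105, 0.0578 and 0.147), as was Acsl4 (0.0887, 0.0781 and 0.119). In the 6 fits that left out 1 sample each, 27 to 31 of the 44 genes were tested, with 2 to 5 called higher and 4 to 6 lower. The fewest higher calls, 2, came without naive replicate 1.

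Genes too shallow to test on the inactive X chromosome included the gene with the largest rise on the active X chromosome. Gk gave 1, 0 and 0 Cast reads in naive and 5, 13 and 9 in stimulated samples. Hccs gave 8, 4 and 4 and then 25, 30 and 11 Cast reads. Both were higher in every stimulated sample, without a test. Gm6377 gave 8, 24 and 15 and then 3, 5 and 0 Cast reads. Rps4x was tested and did not pass (log2 0.10, SE 0.17, adjusted p = 0.621).

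A change in the balance of the alleles was tested over 10364 genes matched between the tables, as an allele-by-stimulation interaction in edgeR that carried sample terms. Of the 44 genes 0 were called at an adjusted p of 0.05, against 0.917% of all genes, and 1 had an unadjusted p under 0.05, against 11.4% of all genes. The ratio moved toward Cast for 22 genes and toward 129 for 22. Because the rule bounds the ratio in both groups, nothing is read from the low count. The log2 change of the ratio was 2.07 (SE 0.71) for Rpl36a, -0.81 (SE 0.45) for 1810030O07Rik, a gene model without a given role, and 0.36 (SE 0.21) for Flna. Standard errors ran from 0.14 for Rps4x to 0.83 for Msl3 with a median of 0.40, so a modest shift of a typical gene was not detectable at this depth. With the replicate number as a block, 7.52% of all genes and again 0 of the 44 were called.

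Set beside X-linked genes outside the authors' table, the 44 genes had overlapping Cast shares, more reads and higher median shares at matched depth. Where every sample had 30 or more reads over both alleles, the mean share over the 6 samples had a median of 2.75% for the 44 genes and 2.40% for 88 X-linked genes outside the table. It was 13.6% for 45 other genes of the table and 52.0% for autosomal genes. Of the 44 genes 30 lay above the median of the 88 outside genes and 14 below it, and 79 of the 88 lay below the highest of the 44. The outside genes had far fewer reads, with a mean of at most 8 Cast reads a sample in any of them. With a mean of 30 to 100 reads a sample over both alleles there were 36 outside genes (median share 3.04%) and 0 of the 44. At matched depth the medians lay further apart. With 100 to 200 reads a sample over both alleles, the median share was 3.79% for 9 of the 44 genes and 2.37% for 36 outside genes. With 200 to 400 reads it was 2.96% for 14 and 1.94% for 14 genes, and from 400 reads 2.45% for 21 genes and 1.17% for the 2 outside genes Bcap31 and Yipf6. The authors selected their table on these samples and the rule used the ratio, so these differences were not tested.

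**Figure D4:**
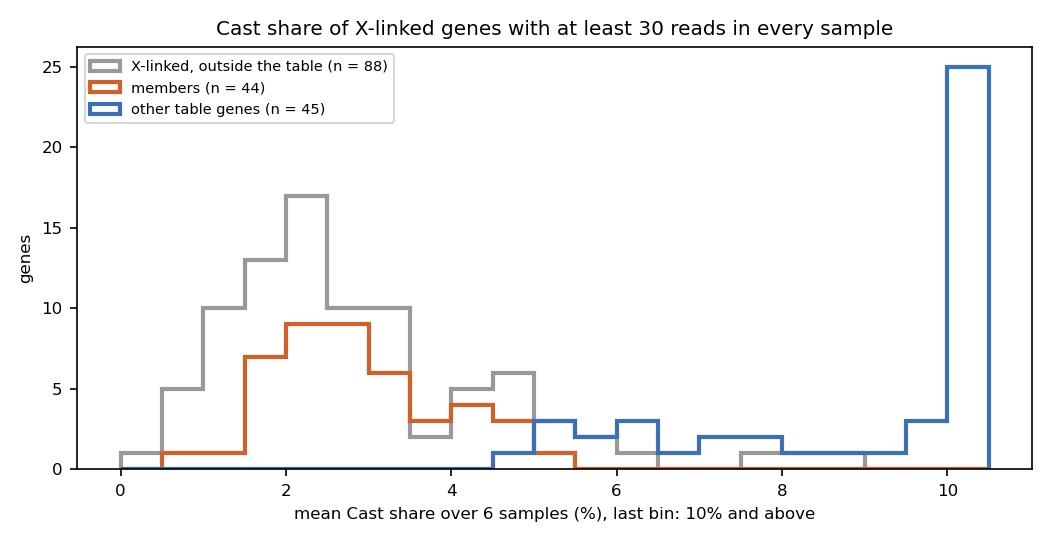
Number of genes (vertical axis) by mean Cast share over the 6 samples (%, horizontal axis) for the 44 genes (orange), 88 X-linked genes outside the authors' table (grey) and 45 other genes of the table (blue), all with 30 or more reads in each sample. The orange and grey outlines overlap with medians of 2.75% and 2.40%, while the blue one has most of its genes at higher shares, the last bin holding all at 10% and above.

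Along the chromosome the 44 genes were interspersed with others. The RefSeq gene order of GRCm38.p6 was restricted to 187 X-linked genes, those of the authors' table or with 30 or more reads in every sample. Other genes can therefore lie between neighbours in this order. In it, 17 of the 44 had another of the 44 as a neighbour, 20 had a table gene of higher ratio and 30 a gene outside the table. No background was computed for these counts, and nothing is read from them. They formed 8 runs of at least 2 genes, the longest of them Prps2, Msl3 and Hccs. Within that run all 3 genes rose on the active X chromosome, by log2 0.70, 0.36 and 1.60.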

How the data were processed

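Total RNA of the 6 samples was made into libraries with a stranded total RNA kit, per the labels. The authors deposited whole-number read counts per gene for each sample, in 1 table for the 129S1 and 1 for the Cast strain annotation. STAR, featureCounts, Subread 2.0.0 and build mm10 appear in the submitters' processing notes, but the deposited tables end in rows of the htseq-count format, and how reads were assigned to a strain, to repeated genes or by strand is not given in the sources used here. One further table deposited by the authors gives group means of RPKM over both alleles and of SRPM for each X chromosome, per the file headers. SRPM is a score that equalled 10000000 times the deposited count over the table total, and its ratio between X chromosomes chose the genes. The 12 samples of another cross are not analysed here, and 1 allele of the genotype label and single values of 1 of the 44 genes are not reported here, although counts include that gene.

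Counts were tested with edgeR 4.0.16 in R 4.3.3 (TMM, filterByExpr, robust quasi-likelihood test, Benjamini-Hochberg over all genes tested at 0.05), after tests on simulated data. In these, 79 of 100 genes changed by a log2 of 2 were recovered in the 129 tables, 95 in the Cast tables and 100 for the ratio. At a log2 of 1, 21, 48 and 51 were recovered. Recovery was not measured separately for the genes described here. They have few Cast reads, so the ratio counts do not show what could be detected in them. For Rpl36a, a log2 ratio change of 2.07 was not called (adjusted p = 0.307, edgeR interaction test). CPM are TMM-normalised within a table. The Cast share is Cast reads over reads of both alleles, for 28374 genes matched by name and chromosome, and the ratio test required 10 reads over both alleles in 3 or more samples. Gene rows without a name held 5.10% to 7.59% of the 129 and 14.4% to 19.7% of the Cast gene reads.

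The labels do not state that replicate numbers pair the samples, and the main fits left the number out. Deviations from the group means of same-numbered samples correlated at 0.566, 0.447 and 0.612 in the 129 tables. In the Cast tables they correlated at 0.239, 0.170 and 0.255. Genes with values per sample were the 8 largest rises and 8 largest falls called in the 129 tables with a mean of at least 50 reads, up to 8 called in the Cast tables, the 5 lowest p of the ratio change, the 5 with most Cast reads and the 3 genes on each side of the limit. Others are named for their role. Members and lists were chosen with earlier results of these data known. Alternatives were DESeq2 1.42.0, RLE factors, no filter, autosomal library sizes, a minimum log2 fold change, other depth limits, the replicate block and leaving out each sample. A fit without the marker genes of other cell types was chosen after seeing the data.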

Additional observations from a re-analysis of the deposited data

How the results depend on the processing

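Of the 34 calls on the active X chromosome, 25 held in each of the 6 fits that left out 1 sample (14 higher, 11 lower). The count ranged from 25 (without naive replicate 1) to 30 in these fits, was 29 with DESeq2, 34 with RLE factors, with autosomal library sizes and without the other-cell marker genes, and 33 with no filter. A minimum log2 fold change of 1 lowered it to 16. On the inactive X chromosome the count of 9 became 8 with DESeq2 and 13 with no filter, and ranged from 7 to 11 with 1 sample left out. Of the 9 calls, only those of Dkc1, Arhgap4, P2ry10 and Flna held in each of these 6 fits. Dkc1, Arhgap4 and P2ry10 were tested only through the group where they were high, so nothing is read from their holding. The log2 change of Rps4x there, 0.10 and not called, was -0.10 without stimulated replicate 2 and ran up to 0.23 with another sample left out. With the replicate number as a block, 37 genes were called on the active X chromosome (Arhgef6, Gprasp1 and Phf8 gained) and 9 on the inactive one (Prps2 lost, Sash3 gained, adjusted p = 0.0469), and no other call changed. The difference in Cast share ranged from -0.327 to 0.0355 percentage points with 1 sample left out and was 0.125 as a median over genes. The median of 10.2 Cast reads a sample limits what can be seen of a single gene on the inactive X chromosome.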
